A study of Homo sapiens with 4 samples.

Results

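Open chromatin was examined around the start sites of 6 genes of amino acid and one-carbon synthesis: ASNS, PSAT1, PHGDH, SHMT2, MTHFD2 and PCK2. The cells were wild-type HCT116, a human colorectal cancer line, exposed for 6 h to 0.5 µg/ml tunicamycin or to 0.1% DMSO, its solvent. The assay was ATAC-seq, in which a transposase inserts sequencing adapters into accessible DNA, with 50000 cells per library and 2 libraries per group that the series describes as biological replicates. Tunicamycin blocks N-glycosylation and so loads the endoplasmic reticulum (ER) with unfolded glycoproteins. The members were all peaks of the 4 deposited peak lists whose midpoint lay within 20 kb of the hg19 start site of a gene, and a peak within 2 kb was counted as a promoter peak. The start sites were at chromosome 7 position 97501854 (ASNS), chromosome 9 position 80912059 (PSAT1), chromosome 1 position 120254510 (PHGDH), chromosome 12 position 57623356 (SHMT2), chromosome 2 position 74425690 (MTHFD2) and chromosome 14 position 24563483 (PCK2). This rule took 84 of the 234140 peaks. Peaks that shared at least 1 bp were merged, which gave 25 of the 78788 regions of the series.

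ER stress activates the kinase PERK, which phosphorylates the translation factor eIF2alpha. Bulk protein synthesis falls, while the transcription factor ATF4 is translated more and, paired with C/EBP proteins, binds composite elements in genes that make, import and charge amino acids. PHGDH and PSAT1 catalyse the opening steps of serine synthesis from a glycolytic intermediate. SHMT2 and MTHFD2 carry the carbon of serine into the mitochondrial folate pathway, ASNS makes asparagine from aspartate, and PCK2 makes phosphoenolpyruvate from oxaloacetate in mitochondria. All 6 are known as ATF4-responsive genes in cultured cells. The comparison asked whether the accessible sites at these genes differed between stressed and control cells.

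The promoter letters are shown because a region listed in all 4 libraries lay over each of the 6 starts. They are RefSeq sequences on GRCh38 and were not converted to hg19, so they are not placed within the peaks. RefSeq entries were used for 5 of the 6 genes, all but SHMT2. The 250 bases before each RefSeq start were searched on both strands for TGATGNAA (the core of the C/EBP-ATF and amino acid response elements), TGACGTCA (the cyclic AMP response element), CACGTG (the E-box), CCAAT and GGGCGG (the GC box), none of which contains another. Capitals mark matches, in either orientation. Bases that RefSeq draws inside the gene are left out, so that PCK2 is shown by 110 bases (chromosome 14, 24094061 to 24094170, plus strand). At ASNS all the bases before the first start lie inside the gene as drawn, and only 30 of them, around the TGATGNAA match, are given (chromosome 7, 97872455 to 97872484, minus strand). The others are on the plus strand, at chromosome 9, 78296875 to 78297124 (PSAT1), chromosome 1, 119711684 to 119711933 (PHGDH) and chromosome 2, 74198365 to 74198614 (MTHFD2).

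ASNS: cgcaggcaTGATGAAActtcccgcacgcgt
PSAT1: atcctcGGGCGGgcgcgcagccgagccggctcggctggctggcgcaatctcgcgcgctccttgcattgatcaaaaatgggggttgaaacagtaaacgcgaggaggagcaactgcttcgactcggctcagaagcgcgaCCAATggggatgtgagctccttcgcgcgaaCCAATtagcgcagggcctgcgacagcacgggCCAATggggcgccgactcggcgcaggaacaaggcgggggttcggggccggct
PHGDH: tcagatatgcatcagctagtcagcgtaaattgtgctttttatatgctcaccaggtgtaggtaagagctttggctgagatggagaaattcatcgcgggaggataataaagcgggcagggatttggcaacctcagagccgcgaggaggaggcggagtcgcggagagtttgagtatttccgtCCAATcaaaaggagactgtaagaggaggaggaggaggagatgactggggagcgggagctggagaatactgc
MTHFD2: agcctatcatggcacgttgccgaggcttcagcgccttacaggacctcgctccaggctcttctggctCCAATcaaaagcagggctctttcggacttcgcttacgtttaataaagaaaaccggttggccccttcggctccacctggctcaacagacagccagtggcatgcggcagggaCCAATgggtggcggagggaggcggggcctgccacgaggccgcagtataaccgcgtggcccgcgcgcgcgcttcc
PCK2: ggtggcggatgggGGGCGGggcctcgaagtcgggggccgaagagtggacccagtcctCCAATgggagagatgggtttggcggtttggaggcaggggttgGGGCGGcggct

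ASNS was the only one of these 5 genes with a TGATGNAA match before a RefSeq start. The match, TGATGAAA, ran from position -68 to position -61, counted back from the base before the start as -1, ahead of the first of the 2 starts that RefSeq gives for this gene. Such a match was found before 3.14% of the 35116 promoters in the table. No TGACGTCA and no CACGTG was found before any of the 5 genes (1.65% and 6.34% of all promoters held one). CCAAT was found 3 times before PSAT1, 2 times before MTHFD2 and 1 time each before PHGDH and PCK2, and in 32% of all promoters. Its matches nearest the start lay at positions -52 (PSAT1), -71 (PHGDH), -74 (MTHFD2) and -193 (PCK2). GC boxes numbered 5 before the first ASNS start, 2 before its second (sharing 1 base), 4 before PCK2 and 1 before PSAT1, and were found in 42.6% of all promoters. The upstream bases were GC-rich at PCK2 (71.6%), ASNS (66% before the first start, 72.8% before the second), PSAT1 (65.6%) and MTHFD2 (62.4%). They were less so at PHGDH (51.2%), beside a median of 58% over all promoters. These matches describe letters and do not show binding.

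The 6 genes differed in how many accessible sites surrounded them. SHMT2 and PCK2 had 7 regions each, MTHFD2 had 5, and ASNS, PSAT1 and PHGDH had 2 each. All regions of ASNS and PSAT1 lay at the promoter. In total 11 regions were promoter regions and 14 lay farther out, and 17 of the 25 were listed in all 4 libraries. The nearest protein-coding genes in RefSeq order were CEP78 and TLE4 beside PSAT1 and TAC1 and OCM2 beside ASNS. SHMT2 overlapped COXFA4L2, MTHFD2 overlapped SLC4A5 and PCK2 overlapped NRL in the GRCh38 table, so a distal peak need not belong to the gene it is listed under, and none was assigned. The limit of 20 kb fell between a PCK2 peak at 19820 bp and the next one outside it at 20405 bp.

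**Figure D1:**
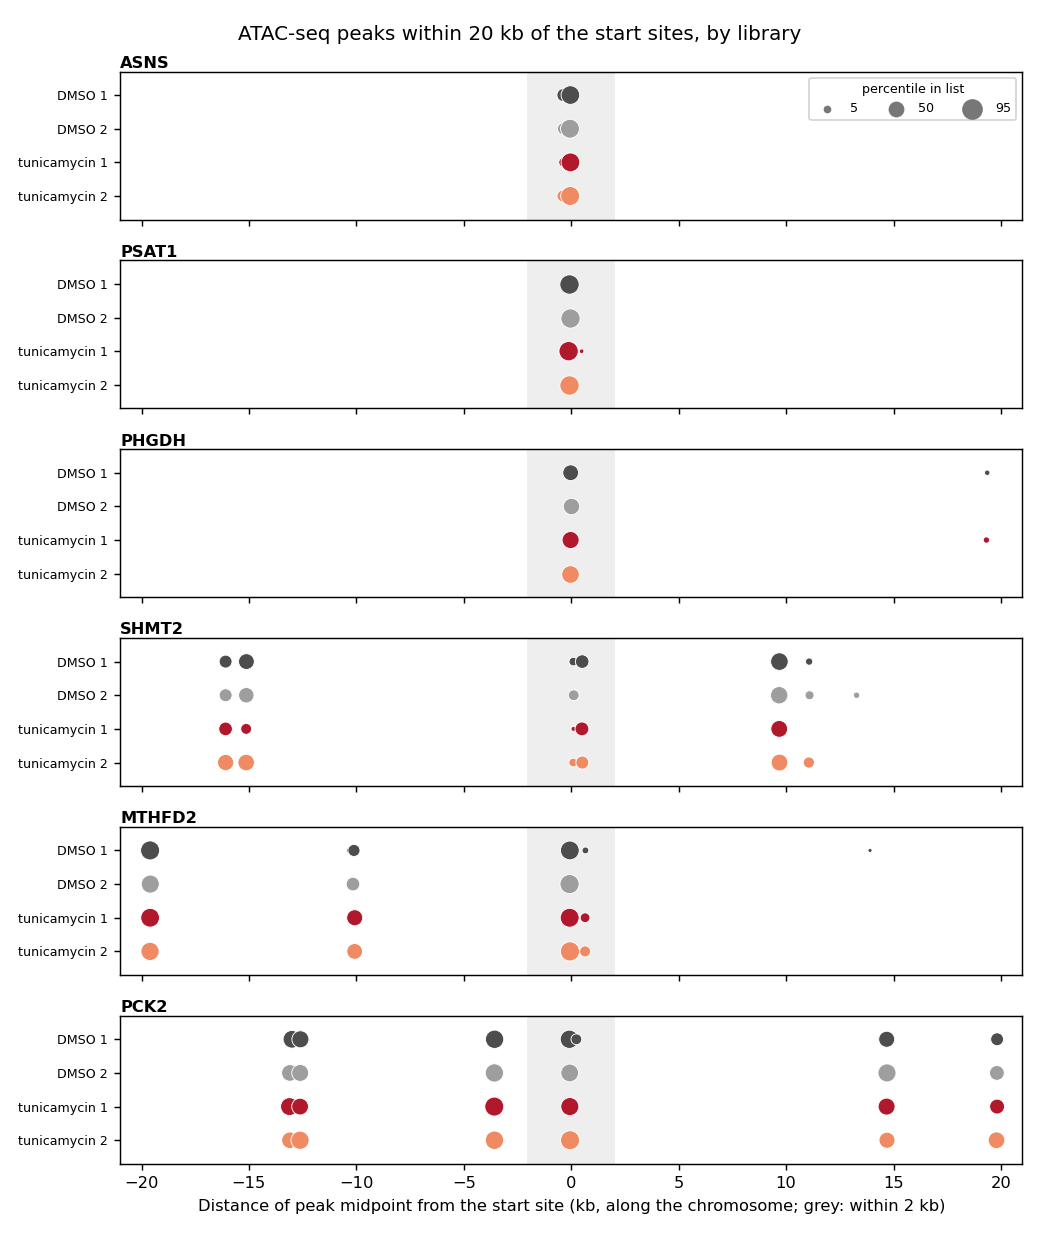
Position of every peak within 20 kb of the 6 start sites, 1 row per library; the x axis is the distance of the peak's midpoint from the start in kb along the chromosome, and the size of a point is the peak's percentile within its own list. ASNS and PSAT1 have peaks only at the start, while SHMT2, MTHFD2 and PCK2 have sites up to 19.8 kb away that recur in the 4 libraries.

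No listed site at these genes was particular to either group in both of its libraries. Of the 25 regions, 0 were gained (a peak in both tunicamycin lists and neither DMSO list) and 0 were lost (the reverse), where 3.65% of all regions of the series were gained and 1.86% lost. With only 25 regions, counts of 0 lie near these shares and do not set the 6 genes apart. The DMSO libraries listed 24 and 19 peaks at the 6 genes (21.5 ± 3.54, SD, n = 2) and the tunicamycin libraries 21 and 20 (20.5 ± 0.707, SD, n = 2). These ranges overlapped, and a two-sided exact permutation test of the means gave p = 1.0, and no smaller p than 0.333 can be had from 2 libraries in each group. The lists held 56581 and 56566 peaks after DMSO and 58467 and 62526 after tunicamycin. Read totals were not used here, and the median summit carried 15 or 16 reads. Summit reads are the pileup recovered from the authors' fold and p-value of a peak, and 100% of peaks in each list gave one. They were not scaled for library depth here, so a difference in reads between libraries can include depth.

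The 8 regions not listed everywhere all lay below the middle of the lists, with percentiles (the place of a peak in its own list by the authors' −log10 q, 100 being the strongest) from 0.22 to 48.9. Peaks seen in 1 library lay 482 bp past the PSAT1 start (tunicamycin replicate 1, 9 reads), 239 bp past the PCK2 start (DMSO replicate 1, 16 reads), 13279 bp past the SHMT2 start (DMSO replicate 2, 12 reads) and 13905.5 bp past the MTHFD2 start (DMSO replicate 1, 3 reads). The only distal region of PHGDH, at chromosome 1, 120273751 to 120273932, was listed with 4 reads in DMSO replicate 1 and 5 in tunicamycin replicate 1. The region 11.1 kb past the SHMT2 start was listed in all but tunicamycin replicate 1, with 12, 15 and 19 reads, and 2 regions next to the SHMT2 and MTHFD2 starts were missing from DMSO replicate 2.

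The best promoter regions of the 6 genes ranged from near the top of the lists to just below their middle. PSAT1 stood highest at 99.5 ± 0.302 (SD, n = 4 libraries). MTHFD2 at 96.3 ± 2.05 and ASNS at 94.2 ± 1.51 came next and overlapped each other. PCK2 followed at 88.6 ± 5.68, its highest library (96.4) lying above the ASNS mean. PHGDH was at 73.7 ± 7.39 with no library above 82.2, below every PCK2 value. At SHMT2 the best promoter region, centred 510 bp past the start, was at 46.2 ± 3.26 (SD, n = 3 libraries). The region over the SHMT2 start was at 15.8 ± 10.6 (SD, n = 4), with 2.36 in tunicamycin replicate 1 and 16.0 to 28.3 in the others. Genes with strong promoter peaks included both with distal sites (MTHFD2, PCK2) and without (PSAT1, ASNS).

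**Figure D2:**
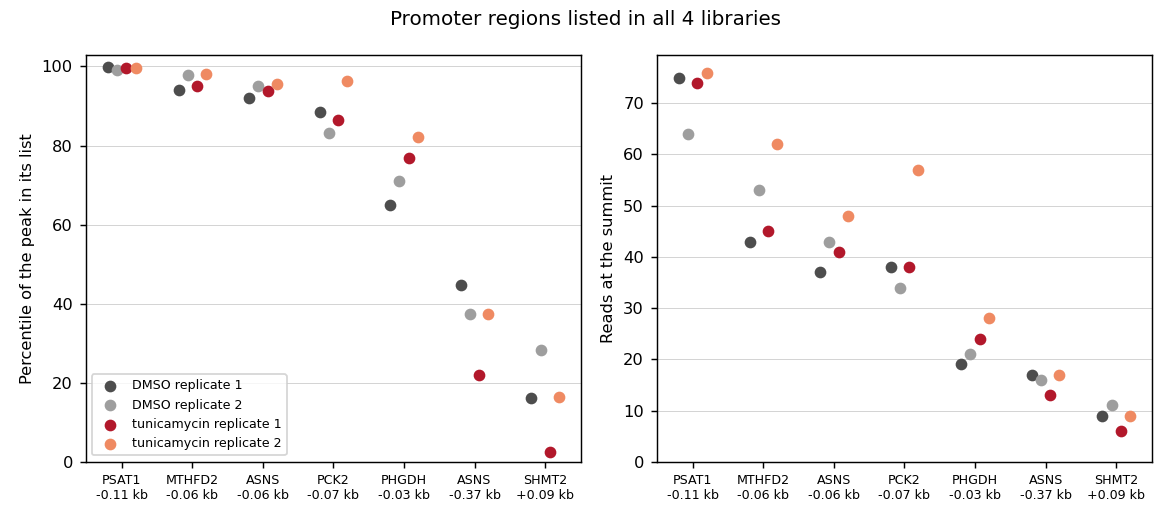
Promoter regions listed in all 4 libraries, ordered by mean percentile and labelled by gene and the distance of the region's centre from the start along the chromosome; the left panel plots the percentile of the peak in its list and the right panel the reads at its summit, 1 point per library. PSAT1 is at the top in both panels with 64 to 76 reads and the SHMT2 start region at the bottom with 6 to 11, and only at PHGDH do both tunicamycin points lie above both DMSO points.

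Differences were tested on ranks. Each library's peaks were ranked by −log10 q over the 40447 regions common to the 4 libraries, the ranks were turned into normal scores, and limma compared tunicamycin with DMSO over all of these regions. Of the 17 common regions at the 6 genes, 0 passed a Benjamini-Hochberg adjusted p of 0.05, where 0.0519% of all common regions did. That share is 21 regions, and the number moved from 0 (without a trend in the prior spread, or ranked by fold) to 35 (with a replicate block), with 4 without tunicamycin replicate 1 and 13 without tunicamycin replicate 2. At an unadjusted p under 0.05 the number was also 0 of 17, beside 7.33% of all common regions. The median difference over the 17 was 0.07 score units, and 0.00044 over all. The tunicamycin pair ranked above the DMSO pair in 4 of the 17 (18% of all common regions), below it in 3 (18.3%), and overlapped it in the other 10. Of 17 regions, these counts lie near the shares of all common regions. The 95% intervals below, which reach 1.49 and -2.06, show what size of difference the data leave possible. In simulated data, with independent normal noise of each region's fitted spread, 200 regions drawn from all common ones were shifted. The same fit called 15.5% of regions shifted by 1 score unit and 95% of those shifted by 2. These shares are averages and were not computed for the 17 regions here, which differ in SE. A count of 0 therefore does not show that smaller differences were absent.

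At the PHGDH promoter the tunicamycin libraries carried more reads than the DMSO libraries, without passing the test. PHGDH encodes the enzyme that commits 3-phosphoglycerate to serine. Its region, at chromosome 1, 120254360 to 120254605, carried 19 and 21 reads at the summit in DMSO replicates 1 and 2, and 24 and 28 in tunicamycin replicates 1 and 2. The groups did not overlap, but the Poisson 95% intervals of single summits were wide: 11.4 to 29.7 for 19 reads and 18.6 to 40.5 for 28. Its percentile over the common regions was 52.8 and 60.4 after DMSO and 67.3 and 73.0 after tunicamycin. The score difference of 0.36 ± 0.34 (SE; 95% interval -0.31 to 1.03) did not pass (limma adjusted p = 0.883). The local background that the authors' caller used ranged from 0.559 to 0.602 reads over the 4 libraries.

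PSAT1, the transaminase that follows PHGDH, had the strongest promoter peak of the 6, with overlapping groups. Its region, at chromosome 9, 80911772 to 80912133, carried 75 and 64 reads after DMSO and 74 and 76 after tunicamycin. The low library was DMSO replicate 2, and the groups overlapped in percentile over the common regions (99.7 and 98.7 against 99.5 and 99.4). The score difference was 0.08 with a 95% interval of -0.4 to 0.56 (limma adjusted p = 0.979). The summits lay 109, 94, 70 and 102 bp before the start in DMSO replicates 1 and 2 and tunicamycin replicates 1 and 2. The peak covered 272 and 297 bp after DMSO and 310 and 333 bp after tunicamycin, wider in both tunicamycin libraries, although this width difference of 0.18 (log2; 95% interval -0.1 to 0.46) did not pass either (limma adjusted p = 0.885).

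SHMT2, the mitochondrial enzyme that splits serine into glycine and a folate-bound carbon unit, had a weak promoter of 2 regions. All the other genes but PHGDH also had 2 promoter regions. The region over the start, at chromosome 12, 57623327 to 57623563, carried 9 and 11 reads after DMSO and 6 and 9 after tunicamycin. Tunicamycin replicate 1 was the low one. Its percentiles over the common regions were 5.68 and 13.5 after DMSO and 0.355 and 3.97 after tunicamycin, so that both tunicamycin ranks were below both DMSO ranks. The percentiles within each library's own list overlapped (16.0 and 28.3 against 2.36 and 16.4), but these also depend on list length, and the tunicamycin lists were longer. The score difference of -0.88 ± 0.59 (SE; 95% interval -2.06 to 0.29) was the most negative of the 17 and did not pass (limma adjusted p = 0.812). It was -0.41 without tunicamycin replicate 1. A stronger region with its centre 510 bp past the start, at 57623795 to 57623937, carried 14 reads in DMSO replicate 1, 15 in tunicamycin replicate 1 and 14 in tunicamycin replicate 2 and was not listed in DMSO replicate 2. With peaks up to 250 bp apart merged, both regions became one and the score difference was 0.18.

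The distal sites of SHMT2 differed in direction, and none passed. Of 5, 3 were listed in all libraries. The site 16.1 kb to the left of the start, at 57607184 to 57607353, carried 17 and 18 reads after DMSO and 18 and 28 after tunicamycin. Both tunicamycin percentiles over the common regions were higher (26.0 and 26.4 against 30.9 and 53.8), and its score difference was 0.44 ± 0.42 (SE, limma adjusted p = 0.888). Its neighbour 15.1 kb from the start, at 57608154 to 57608314, carried 23 and 23 reads after DMSO and 14 and 29 after tunicamycin. The tunicamycin libraries thus lay on either side of the DMSO libraries there, and the score difference of -0.48 ± 0.41 (SE, limma adjusted p = 0.866) became 0.17 without tunicamycin replicate 1. The site on the other side of the gene, 9.7 kb from the start at 57632886 to 57633186, carried 33 and 34 reads after DMSO and 31 and 34 after tunicamycin. Both tunicamycin percentiles over the common regions were lower there (74.9 and 71.8 against 63.5 and 61.5), and the score difference was -0.3 ± 0.33 (SE, limma adjusted p = 0.905).

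MTHFD2, the mitochondrial folate enzyme that acts after SHMT2, had a strong promoter peak that differed more between replicates than between groups. The region at chromosome 2, 74425451 to 74425807, carried 43 and 53 reads after DMSO and 45 and 62 after tunicamycin. The number 2 library was the higher in each group. The score difference was 0.07 (95% interval -0.46 to 0.6, limma adjusted p = 0.984). A weaker region inside the gene, with its centre 659.5 bp past the start, carried 11 reads in DMSO replicate 1, 14 in tunicamycin replicate 1 and 17 in tunicamycin replicate 2, and had no listed peak in DMSO replicate 2.

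The site 10.2 kb before MTHFD2 had the largest positive rank difference and the largest width difference of the 17 regions, neither of which passed after adjustment. It lay at chromosome 2, 74415268 to 74415700. Its best summit carried 10 and 12 reads in DMSO replicates 1 and 2 and 17 in each tunicamycin library, so the groups did not overlap. The Poisson 95% intervals did, at 4.8 to 18.4 for 10 reads and 9.9 to 27.2 for 17. The local background at this site was 0.252 and 0.265 reads after DMSO and 0.293 and 0.274 after tunicamycin. Its percentile over the common regions was 20.7 and 31.8 after DMSO and 54.6 and 48.1 after tunicamycin. The score difference of 0.68 ± 0.41 (SE; 95% interval -0.13 to 1.49) did not pass (unadjusted p = 0.0983, limma adjusted p = 0.762). It stayed between 0.51 and 0.85 with each library left out in turn.

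At the same site the listed peaks covered 308 and 341 bp after DMSO but 132 and 151 bp after tunicamycin. In DMSO replicate 1 these bases were divided between a peak of 120 bp, with the 10-read summit, and a peak of 188 bp with 5 reads farther from the gene. In DMSO replicate 2 they formed a single peak of 341 bp. The summits nearest the gene lay 10106 and 10110 bp from the start after DMSO and 10096 and 10075 bp after tunicamycin. The difference in covered width was -1.20 ± 0.14 on the log2 scale (SE; 95% interval -1.56 to -0.84), with an unadjusted p of 0.000443 and a limma adjusted p of 0.478 over the 40447 common regions. Only the best peak of each library counted in an alternative added after the data had been seen. The widths were then 120 and 341 bp against 132 and 151 bp, which overlap, and the difference was -0.52 (limma adjusted p = 0.913). The difference in covered width therefore rests in part on the 5-read peak of DMSO replicate 1.

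**Figure D3:**
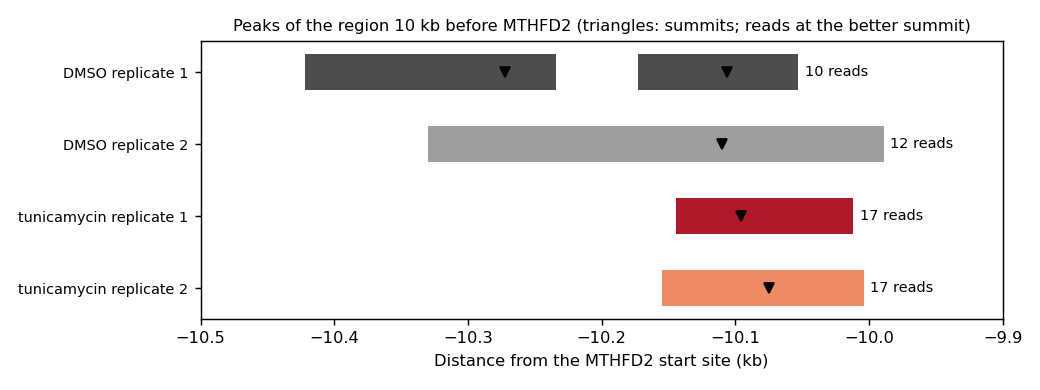
Listed peaks of the region 10.2 kb before MTHFD2, 1 row per library; the x axis is the distance from the start site in kb, bars span the peaks, triangles mark the summits and the labels give the reads at the best summit. Both DMSO libraries cover a stretch farther from the gene that neither tunicamycin library covers, and the tunicamycin summits carry 17 reads against 10 and 12.

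The remaining common site of MTHFD2, 19.6 kb before the gene toward MOB1A, was strong and again varied within groups. It carried 44 and 32 reads after DMSO and 39 and 35 after tunicamycin, which gave -0.16 ± 0.29 as its score difference (SE, limma adjusted p = 0.959). In reads, the DMSO values thus enclosed the tunicamycin values.

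ASNS, the asparagine synthetase and a long-studied target of the amino acid response, had a strong peak over its start and a weaker one inside the gene. The gene is on the minus strand. The region at the start, at chromosome 7, 97501636 to 97501962, carried 37 and 43 reads after DMSO and 41 and 48 after tunicamycin. The values interleaved, and the score difference of 0.07 (95% interval -0.47 to 0.61) did not pass (limma adjusted p = 0.984). Summits lay 51 and 12 bp upstream of the start after DMSO and 23 and 10 bp upstream after tunicamycin. The weaker region, at 97501388 to 97501573, had its summits 316 to 342 bp into the gene. It carried 17 and 16 reads after DMSO and 13 and 17 after tunicamycin, and its percentiles over the common regions were 29.2 and 21.6 against 8.82 and 17.7. Both tunicamycin ranks over the common regions were lower, but the percentiles within each library's own list overlapped (44.8 and 37.4 against 22.0 and 37.5), as did the reads. Percentiles within a list also depend on its length, and the tunicamycin lists were longer. The score difference of -0.47 ± 0.48 (SE; 95% interval -1.42 to 0.48) did not pass (limma adjusted p = 0.895). It was -0.26 without tunicamycin replicate 1. Merged with its stronger neighbour across the gap of under 250 bp, it took that region's difference of 0.07.

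PCK2, the mitochondrial phosphoenolpyruvate carboxykinase, had the most regions listed in all libraries, 6 of its 7. The promoter region, at chromosome 14, 24563242 to 24563593, carried 38 and 34 reads after DMSO and 38 and 57 after tunicamycin. A single library, tunicamycin replicate 2, stood above the others in reads and in percentile over the common regions (94.5 against 76.6 to 84.2). Its local background there was also the highest, at 1.7 reads against 1.43 to 1.58. The score difference of 0.37 ± 0.29 (SE; 95% interval -0.22 to 0.96, limma adjusted p = 0.849) was 0.0 without that library and 0.74 without tunicamycin replicate 1. The site 3.6 kb before the gene, at 24559819 to 24560010, carried 38 and 38 reads after DMSO and 51 and 45 after tunicamycin. Here both tunicamycin summits were higher, and so was the local background (1.59 and 1.68 reads against 1.41 and 1.43 after DMSO). The percentiles over the common regions overlapped (84.8 and 83.8 against 94.4 and 84.8), and the score difference was 0.3 ± 0.29 (SE, limma adjusted p = 0.886).

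The other 4 common sites of PCK2 divided in direction. The site 19.8 kb past the start, at 24583142 to 24583409, carried 19 and 23 reads after DMSO and 23 and 34 after tunicamycin, with percentiles over the common regions of 26.0 and 41.9 against 42.2 and 58.8. Both tunicamycin ranks were higher, the second DMSO library and the first tunicamycin library by a narrow margin, and the score difference was 0.44 ± 0.4 (SE, limma adjusted p = 0.878). It was 0.22 without DMSO replicate 1 and 0.23 without tunicamycin replicate 2. The site 14.7 kb past the start carried 18 and 27 reads after DMSO and 21 and 21 after tunicamycin (score difference -0.29 ± 0.34, SE, limma adjusted p = 0.922). A pair of sites 13.0 and 12.6 kb before the gene had score differences of -0.042 and 0.17, with overlapping ranks.

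**Figure D4:**
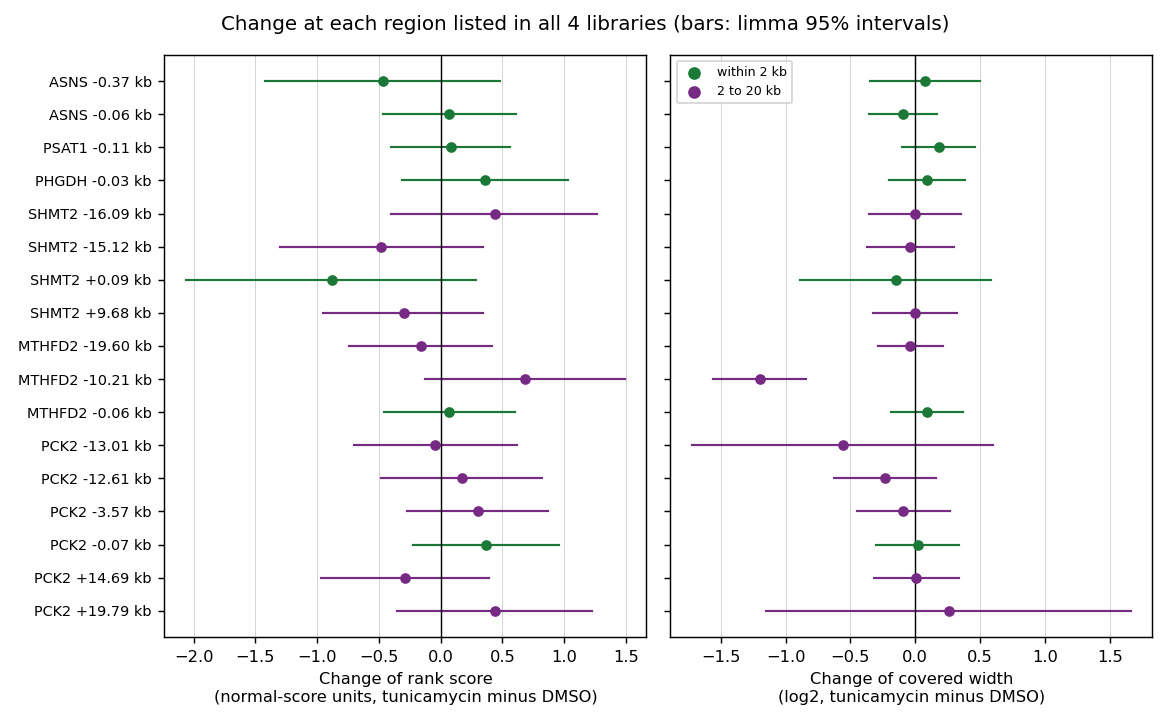
Difference at each of the 17 regions listed in all 4 libraries, labelled by gene and distance of the region's centre from the start; points are tunicamycin minus DMSO, bars are limma 95% intervals that are not adjusted for the number of regions, the left panel is in normal-score units of rank and the right panel in log2 covered width. Every rank interval includes 0, and the width interval of the MTHFD2 site at -10.21 kb, at -1.56 to -0.84, is the only one that does not.

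Width gave no call at these genes. In a limma fit of log2 covered bases over the same 40447 regions, 0 of the 17 regions passed, as did 0% of all common regions, and 1 of 17 had an unadjusted p under 0.05 (the site before MTHFD2), beside 6.21% of all. Both tunicamycin libraries were wider than both DMSO libraries in 2 of the 17 regions (20% of all common regions) and narrower in 4 (13.6%). The 2 wider regions were the PSAT1 and PHGDH promoters, which covered 225 and 217 bp after DMSO and 241 and 230 bp after tunicamycin at PHGDH. The 4 narrower ones were the ASNS promoter, both sites upstream of MTHFD2 and the PCK2 site 12.6 kb before the gene. At the site 19.6 kb before MTHFD2 the difference was small, with 293 bp in each DMSO library against 285 and 284 bp.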

How the data were processed

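ATAC-seq peak lists of 4 HCT116 libraries, grouped by their titles, were analysed on hg19. Per the submitters' processing notes the authors used MACS2 2.2.7.1, Bowtie2 2.3.5.1, Picard 2.18.23, SAMtools, deepTools and Trim Galore. For their order, settings and any shift for the transposase: not given in the sources used here. Each deposited list gives per peak a fold, −log10 p and q values and a whole-number score that follows the −log10 q. It also gives the summit's distance in bp from the peak's start. These are the authors' own values. The fold was taken as the ratio of summit pileup to local background after the same constant was added to both. A whole-number pileup that matched fold and p within 0.001 was recovered for each peak; intervals on it cover counting error only.

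Peaks were merged at 1 bp of overlap (Python 3.11.15, pandas 2.3.3, numpy 2.4.6). Ranks and covered widths of regions common to all lists were fitted with limma 3.58.1 in R 4.3.3. The fits used a trend in the prior spread and Benjamini-Hochberg adjustment over all 40447 regions. They were also run on simulated data, with independent normal noise of each region's fitted spread, in which 200 regions drawn from all were shifted. For rank, 15.5% of regions shifted by 1 score unit were called, and 95% of those shifted by 2. For width, 46% were called at a log2 shift of 1 and 99.5% at 2. The genes and lists were chosen with earlier results of these data known. Named regions were each gene's best promoter region and any other listed in all libraries, its distal common region with the largest rank difference, and any gained or lost region. Other regions at the 6 genes were added after their values were seen. Other pathway genes and cell type markers were not analysed here, because no hg19 annotation was used. Same-numbered libraries did not deviate together (r = 0.0111 for rank scores, 0.00867 for widths).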

Additional observations from a re-analysis of the deposited data

How the results depend on the processing

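In the limma fits, 0 regions at the 6 genes were called for rank or covered width under every alternative run: the replicate number as a block (replicate block, 0 for both), no trend in the prior spread, other merging, a −log10 q of at least 5, ranking by fold or −log10 p, the width of the best peak (added after the data had been seen) and each library left out (0 to 0). The block moved no call at the 6 genes. It gave 0.68 for the rank difference of the site before MTHFD2 (adjusted p = 0.747). The SHMT2 start region had no value at a −log10 q of at least 5, nor the site before MTHFD2 at a reciprocal overlap of 50%. Over the named regions, 7 of 108 rank differences and 10 of 98 width differences turned. The rank differences of the ASNS and PCK2 promoters without tunicamycin replicate 2, and of the MTHFD2 promoter ranked by fold, rounded to 0.00 and show no direction. With peaks up to 250 bp apart merged, rank differences turned to 0.07 (ASNS region inside the gene) and 0.18 (SHMT2 start), and width differences to -0.03, 0.23 and, at the PCK2 promoter, -0.20. With single libraries left out, rank differences ranged from -0.05 to 0.2 (ASNS promoter), -0.15 to 0.32 (PSAT1 promoter), -0.17 to 0.31 (MTHFD2 promoter) and -1.13 to 0.17 (SHMT2 site at 15.1 kb). Width differences ranged from -0.09 to 0.13 (PCK2 promoter), -0.1 to 0.03 (the same SHMT2 site), -0.39 to 0.9 (PCK2 site at 19.8 kb), -0.51 to 0.2 (SHMT2 start) and -0.08 to 0.23 (ASNS region inside the gene). Windows of 50 kb held 1 gained and 1 lost region of 43, where 3.65% of all regions were gained and 1.86% lost. Windows of 10 kb held 0 of each, of 13 regions. Leaving out a library, which defines the groups unequally, gave 0 to 2 gained and 0 to 2 lost. The shares of all regions under those unequal groups are not given here, so these counts cannot be judged against them. The mean number of peaks, -1 for tunicamycin minus DMSO, was -2 with lists of equal length, -0.5 at a −log10 q of at least 5, 0.5 at a −log10 q of at least 10, 1 within 10 kb, 0.5 within 50 kb and -3.5 to 1.5 with single libraries left out (1.5 without DMSO replicate 1). The causes of these turns were not tested. Summits carried 6 to 11 reads at the SHMT2 start, 19 to 28 at PHGDH and 10 to 17 at the site before MTHFD2.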
